A study of Mus musculus with 24 samples.

Results

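The regions described here are the stretches of protein-coding genes that carried a peak of N6-methyladenosine (m6A) in every library of an oocyte and early embryo series in the mouse. The intervals of 12 deposited peak lists, 113755 peaks in all, were pooled and overlapping ones were merged, which gave 31376 regions. Of these, 22504 had their midpoint in a protein-coding gene body of the mm10 annotation, and 688 of the 22504 (3.06%) overlapped a peak of all 12 lists. These 688 regions, called the shared regions below, lay in 604 genes. They were selected on the presence of a peak, so their presence, their fold enrichment and their q-values are given as a description and without a test.

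The lists came from C57BL/6N oocytes and embryos of superovulated 8-week-old females, with 2 biological replicates at each of 6 stages, and cells of several animals were pooled for each library. Germinal vesicle (GV) oocytes, of the type whose nucleolus is surrounded by chromatin, were collected 48 h after pregnant mare serum gonadotropin in pools of 49. Metaphase II (MII) oocytes were collected 14 h after chorionic gonadotropin in pools of 100 and 110. Zygotes (27 to 28 h), 2-cell embryos (39 to 43 h), 8-cell embryos (68 to 70 h) and blastocysts (92 to 94 h after the same hormone) were pooled in numbers of 100, except the second 8-cell library, which held 51. RNA depleted of ribosomal RNA was immunoprecipitated with an m6A antibody. The 12 matching input samples were not analysed here beyond their use by the authors in calling the peaks. GV oocytes, MII oocytes and zygotes are called the maternal phase below, and 2-cell embryos, 8-cell embryos and blastocysts the embryonic phase.

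m6A is the most common internal modification of messenger RNA. A nuclear writer complex built around METTL3 and METTL14, with WTAP, ZC3H13 and RBM15 among its partners, places it on adenosines in a short sequence context whose core is often GGAC, frequently in long exons and near stop codons. Reader proteins of the YTH family bind the mark, and the reader YTHDF2 promotes decay of marked RNA, a process known to act on maternal transcripts in the oocyte. Between the zygote and the 2-cell stage the mouse embryo clears much of its maternal RNA and starts transcribing its own genome.

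The lists held 6914 to 11959 peaks, and Zygote replicate 1 had the fewest. They give no read counts, so the depth behind a peak is unknown, and a peak reflects both the amount of an RNA and its m6A. In such pooled samples fewer cells of a type and less RNA per cell cannot be told apart. Oocyte markers had a peak for 7 to 8 of 16 genes in the maternal libraries and for 0 to 2 in the embryonic ones, and Zp1, Zp2, Zp3 and Figla had none in any list. Cumulus and granulosa markers had a peak for 1 to 4 of 17 genes in the maternal libraries and 0 to 1 in the embryonic ones. Trophectoderm and blastocyst markers had a peak for 1 to 2 of 13 genes up to the 2-cell stage and for 7 to 9 in 8-cell embryos and blastocysts, with Krt8, Krt18 and Elf5 at none. No marker gene of these lists held a shared region.

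Sequence could be read for the few shared regions that reach a RefSeq promoter window, the bases from 250 before to 50 after an annotated gene start on GRCm38.p6, the assembly of mm10. Of the 688 shared regions 14 (2.03%) touched such a window, against 817 (3.74%) of the other genic regions. The 3 stretches that follow are shown because they differ in how many libraries put their strongest summit there. Each is written on the strand of the gene named, 5′ to 3′, in lower case with GGAC, the core letters of the m6A context, and its reverse complement GTCC in capitals.

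Sdf2 region, chr11:78245739-78245953: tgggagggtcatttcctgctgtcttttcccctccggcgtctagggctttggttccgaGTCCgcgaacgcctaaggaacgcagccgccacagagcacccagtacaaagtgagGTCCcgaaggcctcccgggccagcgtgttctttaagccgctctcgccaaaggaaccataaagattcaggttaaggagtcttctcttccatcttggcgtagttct
Eno3 region, chr11:70654601-70654724: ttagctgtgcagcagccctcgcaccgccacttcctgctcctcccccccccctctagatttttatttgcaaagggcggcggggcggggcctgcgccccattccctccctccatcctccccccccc
Bptf region, chr11:107132098-107132343: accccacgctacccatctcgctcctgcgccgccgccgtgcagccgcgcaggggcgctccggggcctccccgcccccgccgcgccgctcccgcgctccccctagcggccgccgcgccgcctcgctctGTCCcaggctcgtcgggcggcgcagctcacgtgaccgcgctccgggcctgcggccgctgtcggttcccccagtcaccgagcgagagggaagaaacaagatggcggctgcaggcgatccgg

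In the Sdf2 stretch 11 of 12 libraries had their summit within its 215 bases, the most of the 14 regions. Sdf2 encodes a protein of the endoplasmic reticulum. The stretch also lies in the promoter window of Supt6, a transcription elongation factor gene on the opposite strand, upstream of the Supt6 start. It held GGAC 0 times on the Sdf2 strand and 2 times on the Supt6 strand, and the peaks carry no strand, so the RNA they came from cannot be named. The same stretch of all 32851 promoter windows held the motif in 54.4% of windows read on the one strand and 52.9% read on the other.

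Of all 300-base windows, 87.7% held GGAC on at least one strand, so such matches are common letters there. The Eno3 stretch of 124 bases, which overlaps the start of the profilin gene Pfn1 on the other strand, held 4 of 12 summits and neither GGAC nor GTCC. The Bptf stretch of 246 bases, at the start of the gene for the largest subunit of the nucleosome remodelling factor NURF, held 1 GTCC and no summit, since all 12 summits of that region lay farther into the gene.

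Sharing across the libraries was uneven. Of the 22504 genic regions 8019 (35.6%) had a peak in 1 library, and the numbers fell to 430 regions in 10 libraries before reaching 477 in 11 and 688 in 12. Just outside the shared regions, the 477 regions with 11 of 12 libraries lacked a peak in Zygote replicate 1 in 147 cases, in 2-cell replicate 1 in 100, in Blastocyst replicate 2 in 88 and in 2-cell replicate 2 in 51. The other 8 libraries were the missing one in 3 to 31 cases each. The library that was most often missing was also the one with the shortest list, and Blastocyst replicate 2 had the next shortest (7943 peaks). Other libraries did not follow list length. The lists of 8-cell replicate 1 (8802 peaks, missing 31 times) and MII oocyte replicate 2 (8965, missing 17 times) were shorter than that of 2-cell replicate 1 (9161).

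**Figure D1:**
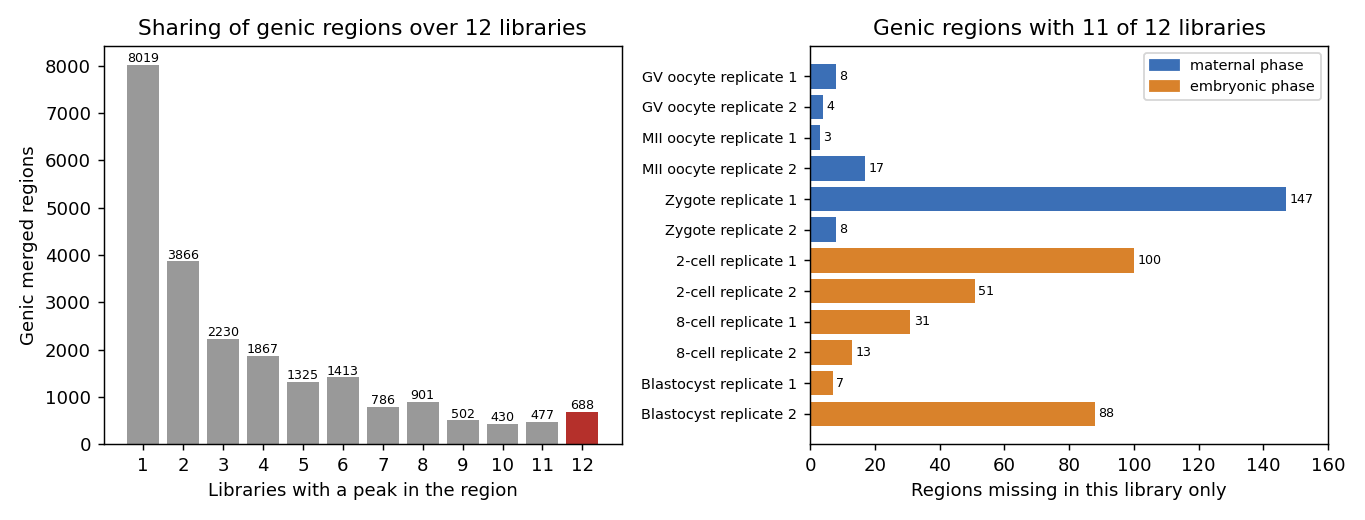
Left, number of genic merged regions (y axis) by the number of libraries with a peak in them (x axis), with the 688 shared regions in red. Right, for the 477 regions with 11 of 12 libraries, how many lacked a peak in each library, coloured by phase; Zygote replicate 1 was the missing library 147 times and MII oocyte replicate 1 3 times.

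Among the regions just outside, the 4 named here had the highest median percentile by −log10 q-value over the 11 lists that held them, from 99.0 to 99.9. Not every list ranked them high: the lowest percentile was 2.59 at Tet3, 22.2 at Pdp2, 71.7 at Satb1 and 94.5 at Eif2s2. Tet3, which encodes a dioxygenase that oxidises 5-methylcytosine in the zygote, lacked a peak in 8-cell replicate 1 alone. Satb1, which encodes a chromatin organiser, lacked one in 2-cell replicate 2, Eif2s2, the gene of the beta subunit of initiation factor eIF2, in GV oocyte replicate 1, and Pdp2, a pyruvate dehydrogenase phosphatase gene, in Zygote replicate 1. Fold enrichment in the 11 lists ranged from 3.21 to 10.98 at Tet3 and from 4.39 to 7.98 at Eif2s2, values that also occur among the shared regions.

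In every list the median shared region ranked above the middle by significance. The authors' −log10 q-value of the best summit in each region was turned into a percentile of its own list, and the median over the 688 regions ran from 66.2 in Zygote replicate 1 to 89.3 in GV oocyte replicate 2. The shared regions held 6.54% (GV oocyte replicate 2) to 11.8% (Zygote replicate 1) of a list's peaks. In 284 of the 688 regions (41.3%) the peak was above the median of every list, and in 123 (17.9%) it reached the 75th percentile of every list. At the other end, 214 regions (31.1%) fell below the 25th percentile in at least 1 list, so a place in all 12 lists did not mean a high rank in each.

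By fold enrichment, the authors' ratio of immunoprecipitate to background at a summit, the ranks were more spread. The median percentile by fold was 39.6 in Zygote replicate 1 and 41.8 in 2-cell replicate 1, 50.1 to 70.0 in the other maternal libraries and 57.2 in 2-cell replicate 2. It was 73.5 to 81.2 in the libraries of 8-cell embryos and of blastocysts. The median fold of the shared regions was 4.99 to 5.96 in the maternal libraries, 5.62 and 6.39 in the 2-cell libraries and 7.99 to 9.46 at the later stages. The medians of the whole lists were 4.59 to 5.99 in the maternal libraries and 5.68 to 6.79 in the embryonic ones. Lists of different lengths and inputs are set side by side here, and no change in methylation is read from them.

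**Figure D2:**
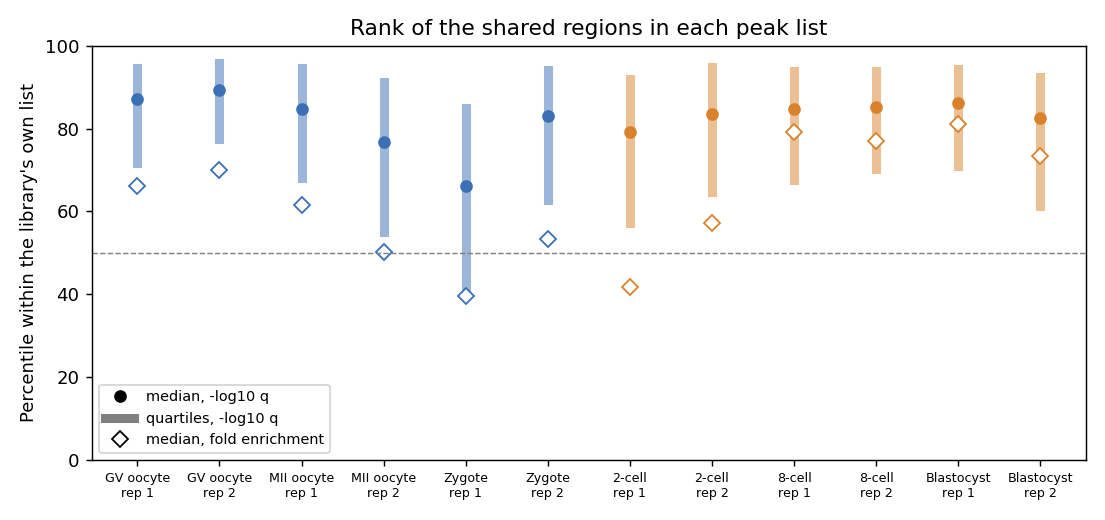
Percentile of the shared regions (y axis) within the peak list of each library (x axis): filled circles are medians and bars quartiles by −log10 q-value, open diamonds are medians by fold enrichment, and the dashed line is the middle of a list. All filled circles lie above the line, lowest in Zygote replicate 1 (66.2), and the open diamonds of Zygote replicate 1 and 2-cell replicate 1 lie below it.

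The order of the shared regions by fold was most alike in replicates of the early stages. Over the 688 regions Spearman's rho between replicates was 0.841 for the GV stage, 0.730 for MII oocytes and 0.751 for zygotes. It was 0.566 for 2-cell embryos, 0.509 for 8-cell embryos and 0.484 for blastocysts. Between libraries of different stages it was 0.235 to 0.820 within a phase and 0.228 to 0.557 across phases. MII oocyte replicate 1 and Zygote replicate 2 were about as alike (0.820) as GV replicates. These are correlations across regions of the same libraries, which share gene composition, and are given as a description.

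The shared regions were wide. Their median width was 818 bp (205 to 3678 bp), against 276 bp for the other genic regions, and 261 (37.9%) spanned at least 1000 bp. Merged regions widen as more lists contribute: the median rose from 201 bp for regions of 1 library to 739 bp for those of 11. Before merging, too, the width was larger. The median width that the peaks of a single library covered in a shared region was 395.5 to 662.5 bp. The median peak of a whole list was 226 to 344 bp wide, and in each library it was below the covered width. In 186 of the 688 regions the peaks of every library covered at least 50% of the merged region, while in the others at least 1 library covered less.

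Most shared regions lay toward the 3′ part of their gene. A strand was known for 560 of them, and 332 of these (59.3%) had their midpoint in the last 25% of the gene body, against 51.3% of the other genic regions. Regions with 9 to 11 libraries went further the same way, at 62.9%, so the position is not particular to the shared regions. In the first 25% lay 10.9% of the shared regions and 17.3% of the others. The median position was 83.0% of the way along the gene for the shared regions, 85.2% for regions with 9 to 11 libraries and 76.6% for all others. Gene bodies include introns, and exons, coding sequence and stop codons could not be placed with the annotation used here.

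Close to the very end of the gene the picture differed. Within 2000 bp of the 3′ gene end lay 152 shared regions (27.1%), against 29.5% of the other genic regions and 34.7% of the regions with 9 to 11 libraries. Midpoints spread evenly over the same genes would put 11.4% there. The 5′ end held 45 shared regions (8.04%) within 2000 bp, against 10.6% of the others. As the plot of positions shows, the shared regions stood above the others most clearly between 80% and 90% of the gene length, with 18.4% of them there against 12.9%.

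**Figure D3:**
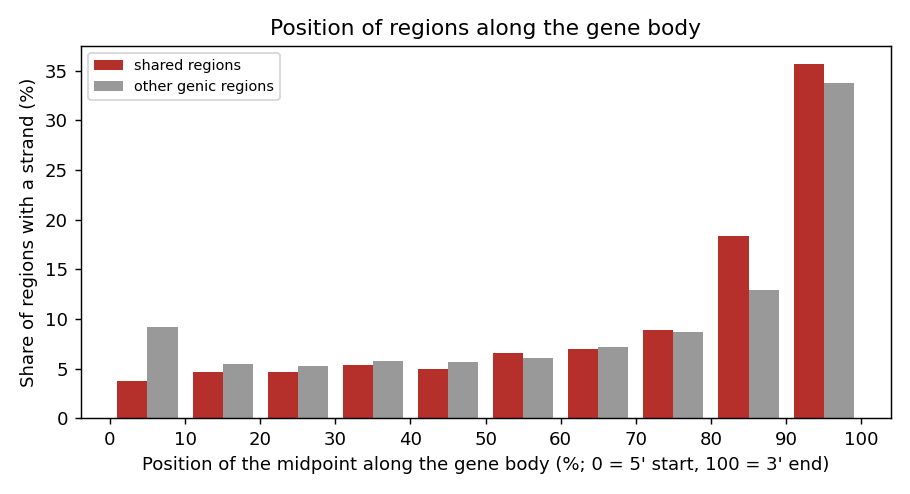
Share of regions (y axis, %) by position of the midpoint along the gene body (x axis, 0 at the 5′ start and 100 at the 3′ end), for the 560 shared regions with a known strand (red) and the 17504 other genic regions with one (grey). Both pile up toward the 3′ end, and the shared regions have the lower bar in the first 10% of the gene.

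The shared regions were also split by merged width. The range of summits cannot exceed the width of a region, so a tight range is partly set by this split. The 41 regions of 300 bp or narrower had their summits within a median range of 13 bp over the 12 libraries, and 31 of them had a range of 20 bp or less. Of the 33 narrow ones with a strand, 30.3% lay in the last 25% of the gene, against 61.8% of the class between 300 and 1000 bp and 60.1% of the class of 1000 bp or wider. In the widest class the median summit range was 539 bp, since such a region can hold several summits.

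The regions that ranked highest in their lowest-ranking library were in Trim30a, Pabpn1, Ppig, Tent4b, Phf3 and Ndufaf4. Pabpn1 (chr14:54897870-54898512, midpoint 736 bp from the 3′ gene end) encodes the nuclear poly(A)-binding protein. Its fold enrichment was 6.30 and 7.00 in the GV libraries, 9.45 and 10.7 in MII oocytes, 9.33 and 11.5 in zygotes, 6.82 and 6.39 in 2-cell embryos, 8.92 and 9.11 in 8-cell embryos and 9.99 and 11.3 in blastocysts. The 2 phases overlapped throughout, and the region stayed above the 98th percentile by q-value in every list. Its 12 summits lay within 21 bp of each other.

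Tent4b, a gene for a non-canonical poly(A) polymerase, behaved similarly at chr8:88257036-88257619, with a fold of 7.44 to 9.40 (median 8.68) in the 6 maternal libraries and 7.30 to 18.3 (median 10.7) in the 6 embryonic ones, and a summit range of 17 bp. Ppig, which encodes a cyclophilin that binds splicing factors, had a wider region of 1529 bp with folds of 8.72 to 16.5 and 7.71 to 18.4. Ndufaf4, an assembly factor gene of respiratory complex I, had folds of 11.2 to 15.4 and 11.9 to 36.0. In each of these 3 the folds of the phases overlapped.

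Phf3, which encodes a PHD finger protein that binds RNA polymerase II, held a region of 2122 bp with folds of 5.31 to 8.06 in the maternal libraries and 5.27 to 12.4 in the embryonic ones. A further shared region of Phf3, 1779 bp wide, had folds of 5.08 to 8.22 and 6.25 to 15.0. Both ranked above the 96th percentile in their lowest list.

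Trim30a stood apart in fold. The 243 bp region at chr7:104427851-104428093, inside a gene for a TRIM-family protein of innate immune signalling, had folds of 57.2 and 51.6 in GV oocytes, 59.1 and 58.9 in MII oocytes, 119 and 116 in zygotes, 206 and 130 in 2-cell embryos, 168 and 177 in 8-cell embryos and 137 and 830 in blastocysts. The embryonic values were all above the maternal ones. The highest, in Blastocyst replicate 2, was far above its replicate, and the summits of all libraries lay within 5 bp. The region lies 18947 bp from the 3′ gene end.

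Tlk1 was the only other shared region whose median fold over the libraries passed 30. It encodes a tousled-like kinase of chromatin assembly, and its 220 bp region (chr2:70781810-70782029) had folds of 6.30 to 46.3 (median 13.9) in the maternal libraries and 21.9 to 98.5 (median 40.7) in the embryonic ones, with overlap between the phases and summits within 4 bp. Rwdd1 and the beta-tubulin gene Tubb4b had comparably tight summits (4 and 5 bp) at low fold, 2.17 to 6.86 and 2.44 to 4.45. How reads that match several copies of a sequence were treated is not given in the sources used here. Narrow regions in genes with near-identical copies, such as tubulins, are therefore uncertain. Whether the narrow regions of Trim30a and Tlk1, with their very high folds, match further copies was not tested, so their folds carry the same limit.

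The lowest-ranking shared regions were in Ppm1l, Rabif, Chmp1b and Socs4, the genes of a protein phosphatase, a Rab-interacting factor, a subunit of the membrane-remodelling complex ESCRT-III and a suppressor of cytokine signalling. Each was near the bottom of at least 1 list by q-value: Ppm1l at percentile 0.0785 in 2-cell replicate 2, Rabif at 0.145 in Blastocyst replicate 2, Chmp1b at 0.174 in Zygote replicate 1 and Socs4 at 0.271 in Blastocyst replicate 2. These are the values just inside the rule. Their folds, such as 5.56 to 8.92 in the maternal and 3.39 to 9.63 in the embryonic libraries at Socs4, were within the range of the regions that ranked high.

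At 39 of the 688 shared regions (5.67%) the fold of every embryonic library was above that of every maternal library, and at 0 the reverse held, against 97 (7.47%) and 1 (0.077%) of the 1298 regions with a peak in at least 5 libraries of each phase. The share among the shared regions was below that background, which includes them. Among the 610 regions that were not shared the counts were 58 (9.51%) and 1 (0.164%). The median fold of the whole lists also differed between the phases, as given above, and its part in these counts was not tested.

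Most genes with a shared region had a single one. That held for 533 of the 604 genes, while 62 had 2, 5 had 3 and 4 had 4. Brca2, the homologous recombination gene, held 4 that lay within 7513 bp, and Mki67, which encodes a coat protein of mitotic chromosomes and marker of proliferation, held 4 that lay within 6763 bp. Eif5b, a gene for the factor that joins the ribosomal subunits, and Bptf also held 4, and the histone acetyltransferase gene Kat6b and the H3K36 methyltransferase gene Setd2 held 3 each.

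Within such genes the regions differed in how closely the libraries placed their summits. At Brca2 the 4 summit ranges were 27, 61, 42 and 767 bp. The last came from 1 library, since 11 summits lay 1492 to 1538 bp from the start of the region and that of 8-cell replicate 1 at 771 bp. At Mki67 the widest region (2238 bp) had summits at 1902 to 1930 bp in 4 maternal libraries and at 684 and 788 bp in the GV ones, while the embryonic summits were spread from 109 to 1915 bp. Zbtb21, Zfp518a, Lcor and Rif1, genes of zinc finger proteins, a nuclear receptor corepressor and a telomere-associated replication factor, had the widest regions (3678, 3597, 3330 and 3098 bp).

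The genes with a shared region held 1607 further genic regions. Of these, 324 (20.2%) had peaks in maternal libraries only, 631 (39.3%) in embryonic libraries only and 652 (40.6%) in both. Regions of genes without a shared region were maternal only in 27.7%, embryonic only in 45.8% and in both phases in 26.4%. A region with a peak in 1 library falls in a single phase by construction. Such regions were 569 of the 1607 (35.4%) and 36.9% of the regions of genes without a shared region. A place in 1 phase only is therefore not read as a difference between the phases. Foxn3, which encodes a forkhead transcription factor, was the only gene of the 604 to combine all patterns. Beside its shared region it held 1 region present in all 6 maternal and no embryonic library. It also held 1 present in all 6 embryonic and no maternal library. Regions of these 2 kinds were rare among the 1607, at 8 (0.498%) and 7 (0.436%). Among the regions of genes without a shared region they made up 2.36% and 1.27%. Genes with a shared region had a median length of 33954.5 bp, and other genes with any genic region 28579 bp.

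Gene lists were counted by how many genes held a shared region out of those with any genic region, against 604 of 9691 (6.23%) for all protein-coding genes. Among the m6A writers 4 of 9 genes did, namely Wtap, Zc3h13, Rbm15 and Rbm15b. Among readers and erasers 2 of 13 did, Ythdf2 and Prrc2a. The counts are small and describe these lists alone. A gene was counted whatever the rank of its region, and 214 of the 688 regions (31.1%) fell below the 25th percentile in at least 1 list.

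Within the writers the folds were moderate. At Wtap, the adaptor of the complex, the region (chr17:12967486-12968175, 1032 bp from the 3′ gene end) had folds of 2.37 to 4.66 (median 3.30) in the maternal libraries and 4.43 to 8.68 (median 6.89) in the embryonic ones, with a small overlap. At Rbm15b, whose product recruits the complex to RNA, folds were 6.66 to 9.92 and 7.67 to 14.8. At Zc3h13, the gene of the nuclear anchor of the complex, they were 2.81 to 6.89 and 3.23 to 20.1. At Ythdf2 the maternal folds (2.97 to 6.19) and the embryonic folds (7.50 to 17.3) did not overlap, and at Prrc2a, the gene of a further m6A-binding protein, they did (4.92 to 12.9 and 4.36 to 7.83).

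Of chromatin remodelling and coactivator genes 16 of 51 held a shared region, with Phf3, the SWI/SNF subunit gene Arid1a (3.77 to 7.44 maternal, 5.65 to 11.9 embryonic) and the acetyltransferase gene Crebbp (4.35 to 5.99 and 4.06 to 8.96) ranking highest. Of splicing factors 11 of 38 did, among them Ppig, Son (9.78 to 16.1 and 10.6 to 23.0) and Prpf38b (8.14 to 14.2 and 8.81 to 18.5). Of histone methyltransferases and demethylases 10 of 44 did, with Setd2, the H3K4 methyltransferase gene Kmt2c and Jarid2, a cofactor gene of Polycomb complex PRC2, ranking highest. Folds of the phases overlapped at Arid1a, Crebbp, Son and Prpf38b.

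RNA 3′ end processing contributed 5 of 24 genes (Pabpn1, Papola, Pcf11, Tent4b and Tent5c), and deadenylation and decay 5 of 32 (Btg1, Ddx6, Smg1, Tut7 and Upf2). By q-value their percentiles in the lowest list differed widely. They were 98.4 at Pabpn1, 98.2 at Tent4b, 20.4 at Pcf11, 10.4 at Tent5c and 3.87 at Papola. For the decay genes they were 82.5 at Smg1, 64.8 at Upf2, 7.92 at Btg1, 4.32 at Ddx6 and 0.564 at Tut7. Smg1, the kinase gene of nonsense-mediated decay, had folds of 6.50 to 10.8 in the maternal and 4.66 to 22.0 in the embryonic libraries. Upf2, of the same pathway, had its region 808 bp from the 3′ gene end, with folds of 3.79 to 12.8 over the 12 libraries, and Btg1, whose product recruits the deadenylase, had 2.68 to 10.2. Ubiquitin-specific proteases contributed 11 of 42 genes, of which Usp1 ranked highest with folds of 8.20 to 12.5, and the Zfp zinc finger genes 41 of 308. Among cyclins and cyclin-dependent kinases the 3 of 37 were Cdk12, Cdk13 and Ccnt2, whose products act on transcription by RNA polymerase II.

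Of Hippo pathway and trophectoderm genes 3 of 26 held a shared region: Tfap2c, a trophectoderm transcription factor gene (6.02 to 14.1 and 6.41 to 18.8), the coactivator gene Yap1 (3.83 to 7.95 and 2.80 to 11.8) and the scaffold gene Sav1 (3.35 to 13.9 over the 12 libraries). Pluripotency genes contributed 2 of 22, Sall4 (5.10 to 7.74 and 5.36 to 13.1) and Klf4 (6.83 to 13.5 and 5.01 to 14.4). At these transcription factor genes, too, folds of the phases overlapped.

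Maternal-effect genes contributed 3 of 20, namely Rlim, an X-linked ubiquitin ligase gene, Ctcf and Dnmt3a. Dnmt3a, the de novo DNA methyltransferase gene, had folds of 3.26 to 7.16 in the maternal and 7.03 to 17.1 in the embryonic libraries, overlapping by a narrow margin. The only gene of 18 in the 2-cell and genome activation list was Nr5a2, which encodes an orphan nuclear receptor, at chr1:136844772-136845892, with folds of 7.56 to 15.7 and 9.08 to 31.1 and summits within 17 bp.

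None of the 57 cytosolic ribosomal protein genes with a genic region had a shared region, and oxidative phosphorylation had 1 of 37 (Uqcrb, of respiratory complex III). Translation initiation had 2 of 44 (4.55%), Eif5b and Eif3j1, which held 5 shared regions together. Cyclins and their kinases stood at 8.11%, kinesins at 2 of 27 (7.41%), Trim genes at 3 of 28 (10.7%) and heat shock and DnaJ chaperones at 6 of 54 (11.1%). F-box genes had 2 of 58, BMP, activin and nodal signalling 1 of 28 (Smad4), immediate early and MYC family genes 1 of 14 (Jund) and olfactory receptors 0 of 5.

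**Figure D4:**
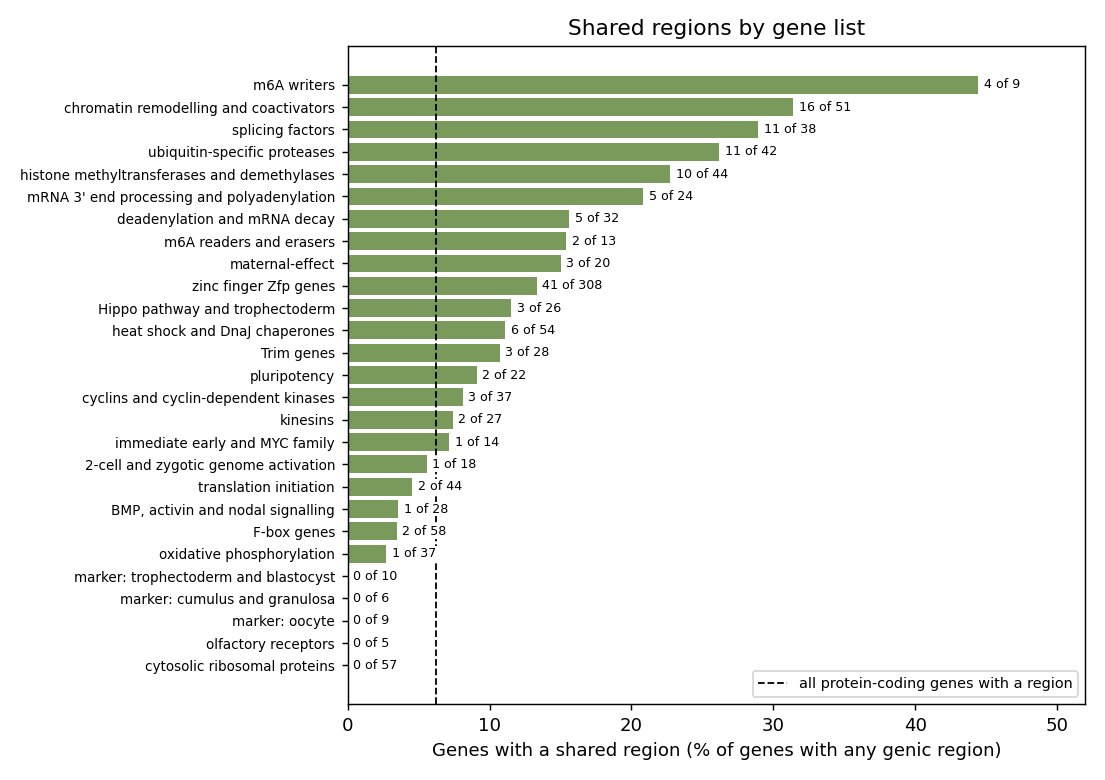
Share of genes with a shared region among genes with any genic region (x axis, %) for each gene list (y axis), with the counts at the bars and the share over all 9691 protein-coding genes with a region (6.23%) as a dashed line. The m6A writers (4 of 9) have the longest bar on few genes, and the ribosomal proteins (0 of 57) are at 0.

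Where the summit lay within a region was not used by the rule, so its position was compared between the phases. For each library the summit with the best q-value was taken, and the mean position of the maternal and embryonic libraries was tested by exact permutation, two-sided, in 1298 regions, of any class, with a peak in at least 5 libraries of each phase. After Benjamini-Hochberg adjustment 0 of 1298 regions (0%) and so 0 of 688 shared regions passed 0.05, and the smallest adjusted p of the exact permutation test was 0.211. At an unadjusted exact p under 0.05 there were 99 of the 688 (14.4%), against 181 of all 1298 (13.9%). The share among the shared regions was near that background, and also near the 82 of 610 (13.4%) among the regions that were not shared. The p-values measure the spread between these libraries, and with stages as the units, 3 against 3, no p can go below 0.1. The smallest exact permutation p, 0.00216, was reached by 12 of the 1298 regions. Many more regions with so low a p would be needed for any to pass the adjustment. A count of 0 therefore does not show that summits stayed in place.

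The absolute difference in mean position had a median of 18.75 bp over the 688 shared regions and was under 50 bp in 468 of them (68.0%). In 139 the phase means lay at least 100 bp apart. Of the 99 regions with an unadjusted p under 0.05, 81 had a strand, and the embryonic mean was nearer the 3′ end in 41 and nearer the 5′ end in 40. For pairs of libraries, the median distance between the summits of a shared region was 6.5 to 25 bp for replicates, 8 to 34 bp within a phase and 11 to 39 bp across phases. In the other genic regions that 2 libraries had in common, the corresponding distances were 10 to 29, 8 to 46 and 14 to 51 bp.

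Of the 1298 tested regions 23 (1.77%) had phases whose summits did not overlap, 16 of them among the 610 not shared (2.62%). The same held in 7 shared regions (1.02%). They were in Chmp1b, Pole3, Togaram1, Mysm1, Fem1c, Ktn1 and Dnajc2, named after their values were seen, and each had an exact permutation p of 0.00216, the smallest that 6 against 6 libraries can give, and an adjusted p of 0.211. At Pole3, a DNA polymerase epsilon subunit gene, the summits lay 219, 281, 328, 346, 360 and 349 bp from the region's start in the maternal libraries and 165, 177, 174, 188, 175 and 175 bp in the embryonic ones, 138 bp nearer the 3′ gene end on average. The embryonic summits lay closer together than the maternal ones.

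Togaram1, the gene of a microtubule-associated protein of cilia, showed summits at 927 to 965 bp in the maternal libraries and, in the embryonic ones, either at 976 to 980 bp or at 1105 to 1121 bp, a mean difference of 100.7 bp toward the 3′ end. At Chmp1b the embryonic summits were at 987 to 995 bp, while the maternal ones were at 145, 212, 433, 436, 756 and 985 bp. In Ktn1, the kinectin gene, the means were 367.7 and 400.7 bp, and the differences were 40.2 bp at Mysm1, 35.2 bp at Fem1c and 10.7 bp at Dnajc2.

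**Figure D5:**
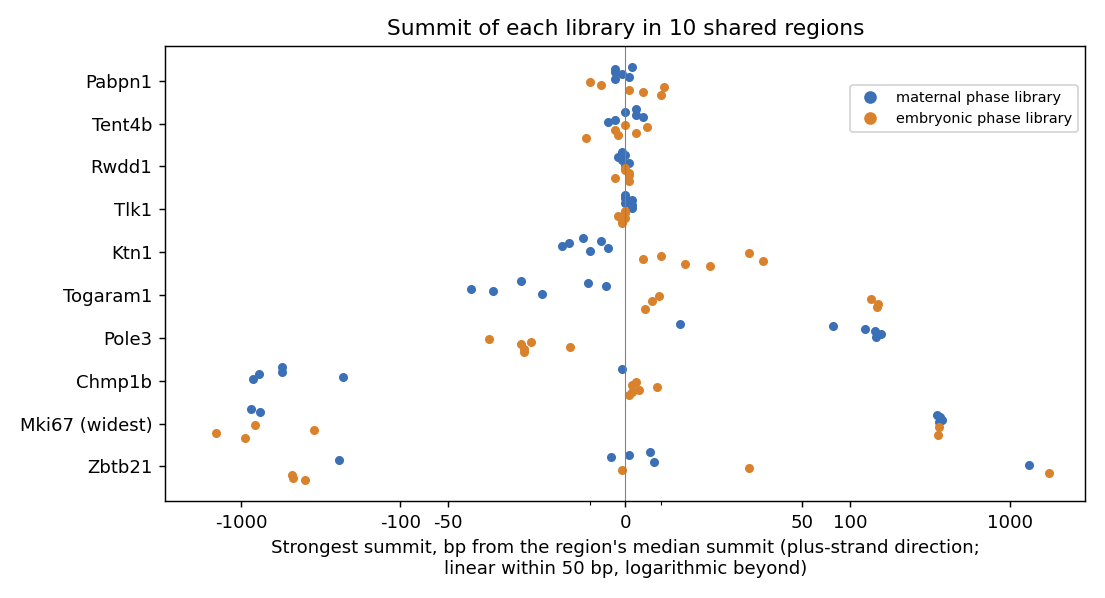
Strongest summit of each library (points, coloured by phase) in 10 shared regions (rows), as the distance in bp from the median summit of the region (x axis, linear within 50 bp and logarithmic beyond). Pabpn1, Tent4b, Rwdd1 and Tlk1 have tight clusters, Ktn1, Togaram1, Pole3 and Chmp1b have phases that do not overlap, and the wide Mki67 and Zbtb21 regions hold several summits.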

How the data were processed

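m6A peaks of 12 immunoprecipitated libraries were analysed. The submitters' processing notes name MACS2 2.1.2, HISAT2 2.1.0, bedtools 2.28.0, deepTools 3.2.0, SAMtools 1.9, cutadapt 1.8.1 and FastQC 0.11.8 and the build mm10, with settings not given in the sources used here. By their peak names, the deposited lists were called per library against the matching input, without pooling replicates. Each deposited line holds a summit with the authors' fold enrichment (a ratio), −log10 p-value and −log10 q-value, which starts near 1.3 in each list. The deposited score equals 10 times the −log10 q-value without its decimals for 99.9993% of the summits. Depth is unknown.

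From these, intervals on chromosomes 1 to 19, X and Y were merged where they overlapped by at least 1 bp (13 summits on other contigs were left out), and midpoints were placed in 21887 protein-coding genes of a RefSeq table of GRCm38.p6. Strand came from the RefSeq promoter table, for 17492 of these genes. The summit test was an exact permutation test over all 924 assignments of 6 against 6 libraries (fewer where a peak was missing). Benjamini-Hochberg adjustment was over all regions tested. The script of the test was run on simulated positions, normally spread around a single point per region and phase with a capped spread. Regions with several summits are unlike that setting, so the simulation does not show how the test performs there. Named regions were those with the highest and lowest values of their smallest percentile by −log10 q-value, the widest, the genes with most regions, the tightest summits, up to 3 per gene list and 4 regions missing in 1 library; gene models without a symbol of their own were passed over. The regions and the 27 gene lists were chosen with earlier results of these data known. Alternatives changed the q-value minimum, the list length, the merging, the cover, the gene overlap, the summit measure, the replicate block and the libraries included. Python 3.11.15, numpy 2.4.6, pandas 2.3.3 and scipy 1.17.1 were used.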

Additional observations from a re-analysis of the deposited data

Results flagged for a closer look

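Among the genic regions that lacked a peak in a single library, 147 of 477 lacked it in Zygote replicate 1. Within the 6 maternal libraries this count stood far from the others, which were 3 to 17, by Dixon's criterion at 95%. It was 1 of 12 such groups of values looked at, and chance flags about 1 in 20. Zygote replicate 1 also had the shortest list (6914 peaks) and the lowest median percentile of the shared regions (66.2), and with all lists cut to their 6914 best peaks 492 shared regions were found.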

How the results depend on the processing

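With peaks required to cover at least 50% of the merged region in every library, the shared regions fell from 688 to 186 and the share within 2000 bp of the 3′ gene end from 27.1% to 21.3%. Counting regions of at least 11 of 12 libraries gave 1165. Leaving out each library in turn, with a peak required in the 11 others, gave 692 to 835 regions, the highest without Zygote replicate 1. The share near the 3′ end was then 26.9% to 28.3%. Leaving out a library and asking for at least 11 of 12 both loosen the rule. Counts near or above 688 were therefore set in advance there. Other settings gave 492 regions (lists of equal length), 573 and 666 (−log10 q-value of at least 5 and 2) and 687 or 688 (merging and gene overlap). Of the 39 regions named for their rank, width, number per gene or tight summits (those named from gene lists were not counted), 17 were kept at 50% cover, 31 with lists of equal length and 35 at either q-value minimum.

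The summit test called 0 regions under every setting run. In none of them was the smallest exact permutation p below 0.00216, so these counts of 0 carry the limit given above. The test's unadjusted count among the shared regions, 99, was 76 to 126 with each library left out, 134 without the 2-cell libraries and 0 with stage means, where the smallest possible p is 0.1. With the replicate number as a block it called 0 regions, with 90 at an unadjusted p under 0.05. The numbers did not pair the libraries: over 15 pairs of stages the correlation of same-numbered deviations was −0.150 to 0.0818. Depth is unknown, so whether an absent peak reflects less RNA, fewer reads or less m6A cannot be told apart.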

Other observations

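Outside protein-coding gene bodies 16 merged regions had a peak in all 12 libraries. They included regions in the long noncoding RNA genes Tug1, Malat1 and Norad, of 669, 904 and 892 bp, and in pseudogene entries such as Hmgb1-ps1 and Hmgb1-ps2. Of the 688 shared regions 14 (2.03%) had their midpoint also in a long noncoding RNA entry and 4 (0.581%) in a pseudogene entry, against 3.69% and 1.06% of the other genic regions. The hairpin of Mir7021 overlaps a shared region of Prdm2, the gene of a histone methyltransferase. None of the 12 summits lay inside the hairpin, and the nearest was 669 bp from its midpoint.

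The share of genes with a shared region was 4.47% for genes of up to 10000 bp, 6.76% for longer genes of up to 50000 bp and 6.57% for the longest.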
